A study of Mus musculus with 4 samples.

Results

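The Hox genes encode homeodomain transcription factors that lie side by side in 4 clusters of the mouse genome. Members were the protein-coding genes of the RefSeq gene table of GRCm38.p6 whose symbol is Hoxa, Hoxb, Hoxc or Hoxd followed by a number, and 39 of 21779 protein-coding genes met that rule. There were 11 Hoxa genes on chromosome 6, 10 Hoxb genes on chromosome 11, 9 Hoxc genes on chromosome 15 and 9 Hoxd genes on chromosome 2. The question of the study was which genomic places are occupied by PPP2CA, the catalytic subunit of the phosphatase PP2A, in hematopoietic stem cells. The cells were taken from bone marrow, and the mice were wild type for Ppp2ca. It used CUT&Tag, in which an antibody bound to chromatin guides a transposase that tags the DNA beside it. There were 2 libraries with the PPP2CA antibody and 2 with IgG, an antibody with no intended target. All 4 libraries came from cells described in the same way, with no age, sex or treatment given, and the labels do not say whether different animals gave the replicates. Whether the antibody bound PPP2CA alone was not tested.

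The data were peak lists, 1 per library. PPP2CA 1 and PPP2CA 2 held 16811 and 17686 peaks, with a median of 18 fragments at the summit in each. IgG 1 and IgG 2 held 561 and 310 peaks, with a median of 4 fragments. The IgG lists were far shallower, since their genome-wide background was exceeded 9.34 to 9.61 times by that of the PPP2CA libraries. A replicated region here is a place with a peak in both PPP2CA libraries that share at least 1 bp, and with no peak of either IgG library. A gene counted as marked when such a region came within 1 kb of either of its boundaries. Markers of the labelled cell type were marked at 5 of 14 genes (led by Tal1, Kit and Mecom), those of lymphoid cells at 1 of 8 (Cd3d), of erythroid cells at 2 of 5 (Klf1 and Epor), and of myeloid and stromal cells at 0 of 5 each, where 39.5% of all protein-coding genes were marked. The stem cell share, 35.7%, was thus near that of all genes. Csf1r (32 and 46 fragments), a myeloid marker, and Pecam1 (23 and 19), a stromal list marker of endothelium, had a region further inside the gene. A mark is not expression, so these counts do not measure cell purity.

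Hox genes give the cells along the body axis their positional identity, and their order along the chromosome follows the order in which they are switched on, from paralogue 1 at one end of a cluster to paralogue 13 at the other. Genes with the same number in different clusters are paralogues, copies from the duplication of an ancestral cluster. In blood, genes of the Hoxa and Hoxb clusters are known for their use in stem and progenitor cells, and Hoxa9 with its cofactor Meis1 for its part in leukaemia. KMT2A and its partners keep Hox genes on through cell division, and Polycomb complexes keep them off.

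The promoters of 3 neighbouring Hoxa genes are shown first, since the replicated regions of the cluster gather around these genes but cover the promoter of only 1 of them. Each runs from 250 bases before to 50 bases after the start, from RefSeq on GRCm38.p6, and all 3 lie on the minus strand. Hoxa3 starts in the window chr6:52213018-52213317, Hoxa7 in chr6:52218524-52218823 and Hoxa9 in chr6:52227321-52227620. Capitals mark the single match to the MEIS core TGACAG, which reads as its reverse complement at positions 238 to 243 of the Hoxa3 window. The other searched motifs had no match in the 3 windows.
Hoxa3: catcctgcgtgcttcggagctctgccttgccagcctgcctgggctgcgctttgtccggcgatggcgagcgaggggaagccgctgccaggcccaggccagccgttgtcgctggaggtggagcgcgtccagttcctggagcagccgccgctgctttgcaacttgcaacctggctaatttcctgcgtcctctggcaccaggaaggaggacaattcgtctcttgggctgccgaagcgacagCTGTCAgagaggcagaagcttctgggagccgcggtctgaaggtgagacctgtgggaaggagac
Hoxa7: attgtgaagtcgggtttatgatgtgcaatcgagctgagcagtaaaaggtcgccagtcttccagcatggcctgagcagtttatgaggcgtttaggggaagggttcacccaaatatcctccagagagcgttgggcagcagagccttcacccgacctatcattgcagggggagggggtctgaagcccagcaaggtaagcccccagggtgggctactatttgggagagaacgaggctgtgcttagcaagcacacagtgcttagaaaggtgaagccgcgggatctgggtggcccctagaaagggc
Hoxa9: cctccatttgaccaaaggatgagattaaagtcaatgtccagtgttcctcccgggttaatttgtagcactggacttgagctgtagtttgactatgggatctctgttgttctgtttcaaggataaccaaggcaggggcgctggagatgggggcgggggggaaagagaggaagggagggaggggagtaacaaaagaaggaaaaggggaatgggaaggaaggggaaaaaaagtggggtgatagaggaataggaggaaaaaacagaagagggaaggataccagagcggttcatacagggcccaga

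The Hoxa3 window had a GC share of 64%, with 20 CpG and an observed over expected CpG ratio of 0.657. For the Hoxa7 window these were 55.7%, 9 and 0.405, and for the Hoxa9 window 49.7%, 4 and 0.28. A replicated region covered the whole Hoxa3 window, and no PPP2CA peak of either library touched the other 2.

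Few Hox genes had a called PPP2CA region at their boundaries. The lists hold called peaks only, so a place without one can still hold signal. A replicated region came within 1 kb of a boundary at 3 of 39 Hox genes (7.69%, exact 95% interval 1.62 to 20.9), where 39.5% of all protein-coding genes had one. The 3 were Hoxa3, Hoxa7 and Hoxa9, all in the Hoxa cluster, where they made 27.3% of 11 genes (6.02 to 61). That interval includes the share of all genes. None of the 10 Hoxb genes was marked (0 to 30.8%), and none of the 9 Hoxc or the 9 Hoxd genes (0 to 33.6% each). Genes of a cluster share neighbours and chromatin and are not independent draws, so these intervals are too narrow, and no test was made. The single libraries gave 4 marked Hox genes each, against 43.8% of all genes in PPP2CA 1 and 44.4% in PPP2CA 2. They were Hoxa3, Hoxa7, Hoxa9 and Hoxa13 in PPP2CA 1, and Hoxa3, Hoxa4, Hoxa9 and Hoxb4 in PPP2CA 2. With a window of 500 bp Hoxa3 alone was marked, since the regions at Hoxa7 and Hoxa9 lay 988 and 916 bp from the boundary. With only peaks of −log10 q of at least 5 it was again Hoxa3 alone, since these 2 regions had a −log10 q of 1.85 and 4.38 in PPP2CA 1.

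**Figure D1:**
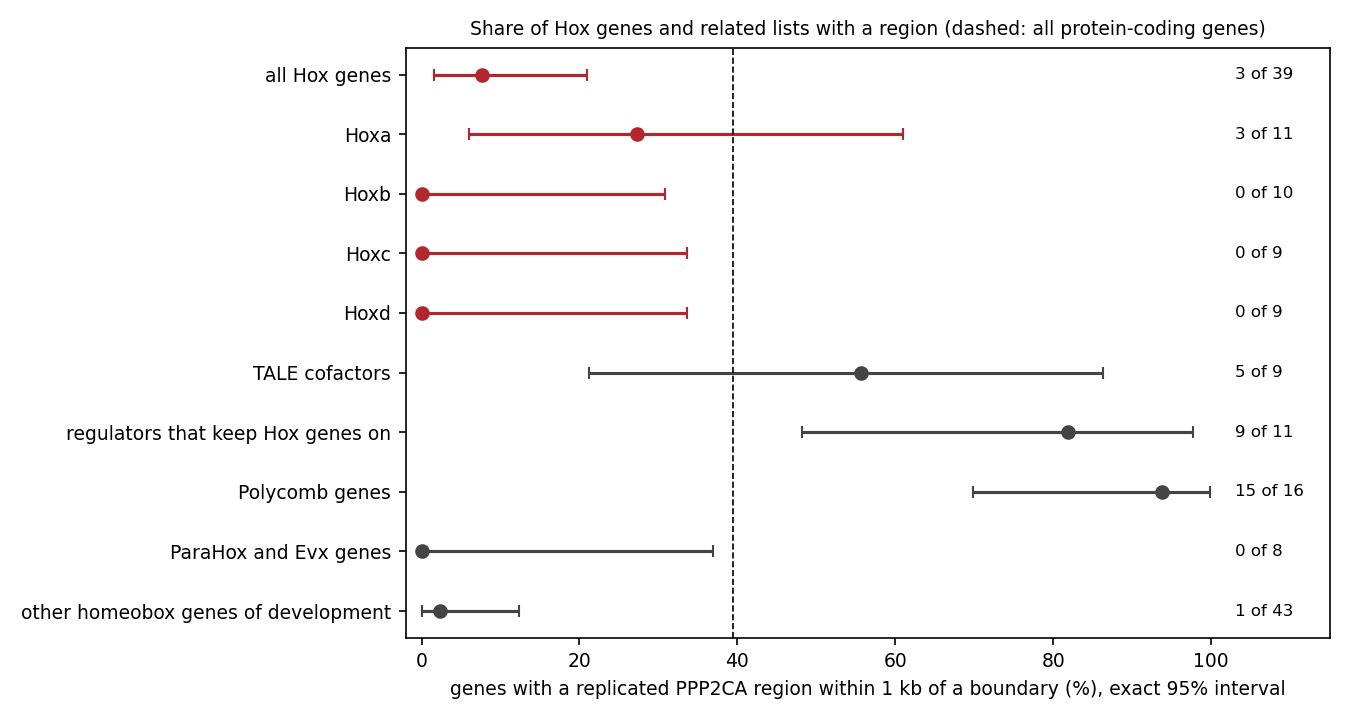
Share of genes (%, horizontal axis) with a replicated PPP2CA region within 1 kb of a boundary, for the Hox genes and the lists of related genes, with the exact 95% interval as a bar, the counts at the right and the share of all protein-coding genes (39.5%) as a dashed line. The Hoxb, Hoxc and Hoxd points sit at 0, and the Polycomb genes at 93.8%.

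Counting regions anywhere in a gene as well added Hoxb3, among others. This gave 5 of 39 Hox genes (12.8%, 4.3 to 27.4), with 45.3% for all protein-coding genes. Gene length was not accounted for in this count. Hoxb3 is annotated over 40.8 kb and holds Hoxb4. Hoxa3, already counted by its boundary, is annotated over 44 kb with Hoxa4, Hoxa5 and Hoxa6 inside it. In the single libraries, 6 Hox genes in PPP2CA 1 and 8 in PPP2CA 2 had a peak within them or within 1 kb, with 51.5% and 52.4% of all genes. The remaining 30 of the 39 had no such peak in either PPP2CA library. They were 5 Hoxa genes (Hoxa5, Hoxa6 and Hoxa10 among them), 8 Hoxb genes (all but Hoxb3 and Hoxb4), all 9 Hoxc genes and 8 Hoxd genes (all but Hoxd3). Hoxb5, known as a marker of long-term stem cells, and Hoxa10, a regulator of blood progenitors, were among them.

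Counted by length of DNA rather than by gene, the 4 clusters together spanned 492 kb and held 6 replicated regions over 3977 bp, or 12.2 per Mb, against 4.67 per Mb over the assembled genome. Of these, 5 lay in the 106 kb of Hoxa (47.4 per Mb) and 1 in the 174 kb of Hoxb (5.75 per Mb). The 116 kb of Hoxc and the 96.9 kb of Hoxd held none. The clusters are denser in genes, with 39 protein-coding genes in 492 kb against 21779 in the 2661.2 Mb of the genome. Gene density was not accounted for in these values per Mb. The difference from the genome was not kept in every setting. With only peaks of −log10 q of at least 5 the clusters held 1 region, or 2.03 per Mb, below the 3.62 per Mb of the genome. With at least 20 fragments at both summits they held 3 regions (6.1 per Mb, genome 2.58). Without PPP2CA 1, which leaves the peaks of PPP2CA 2 alone, they held 13 (26.4 per Mb, genome 6.57). The 500 kb on each side of the clusters held 4 regions beside Hoxa, 13 beside Hoxb, 14 beside Hoxc and 1 beside Hoxd. The 4 flanks hold 4, 17, 23 and 3 other protein-coding genes in that order.

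**Figure D2:**
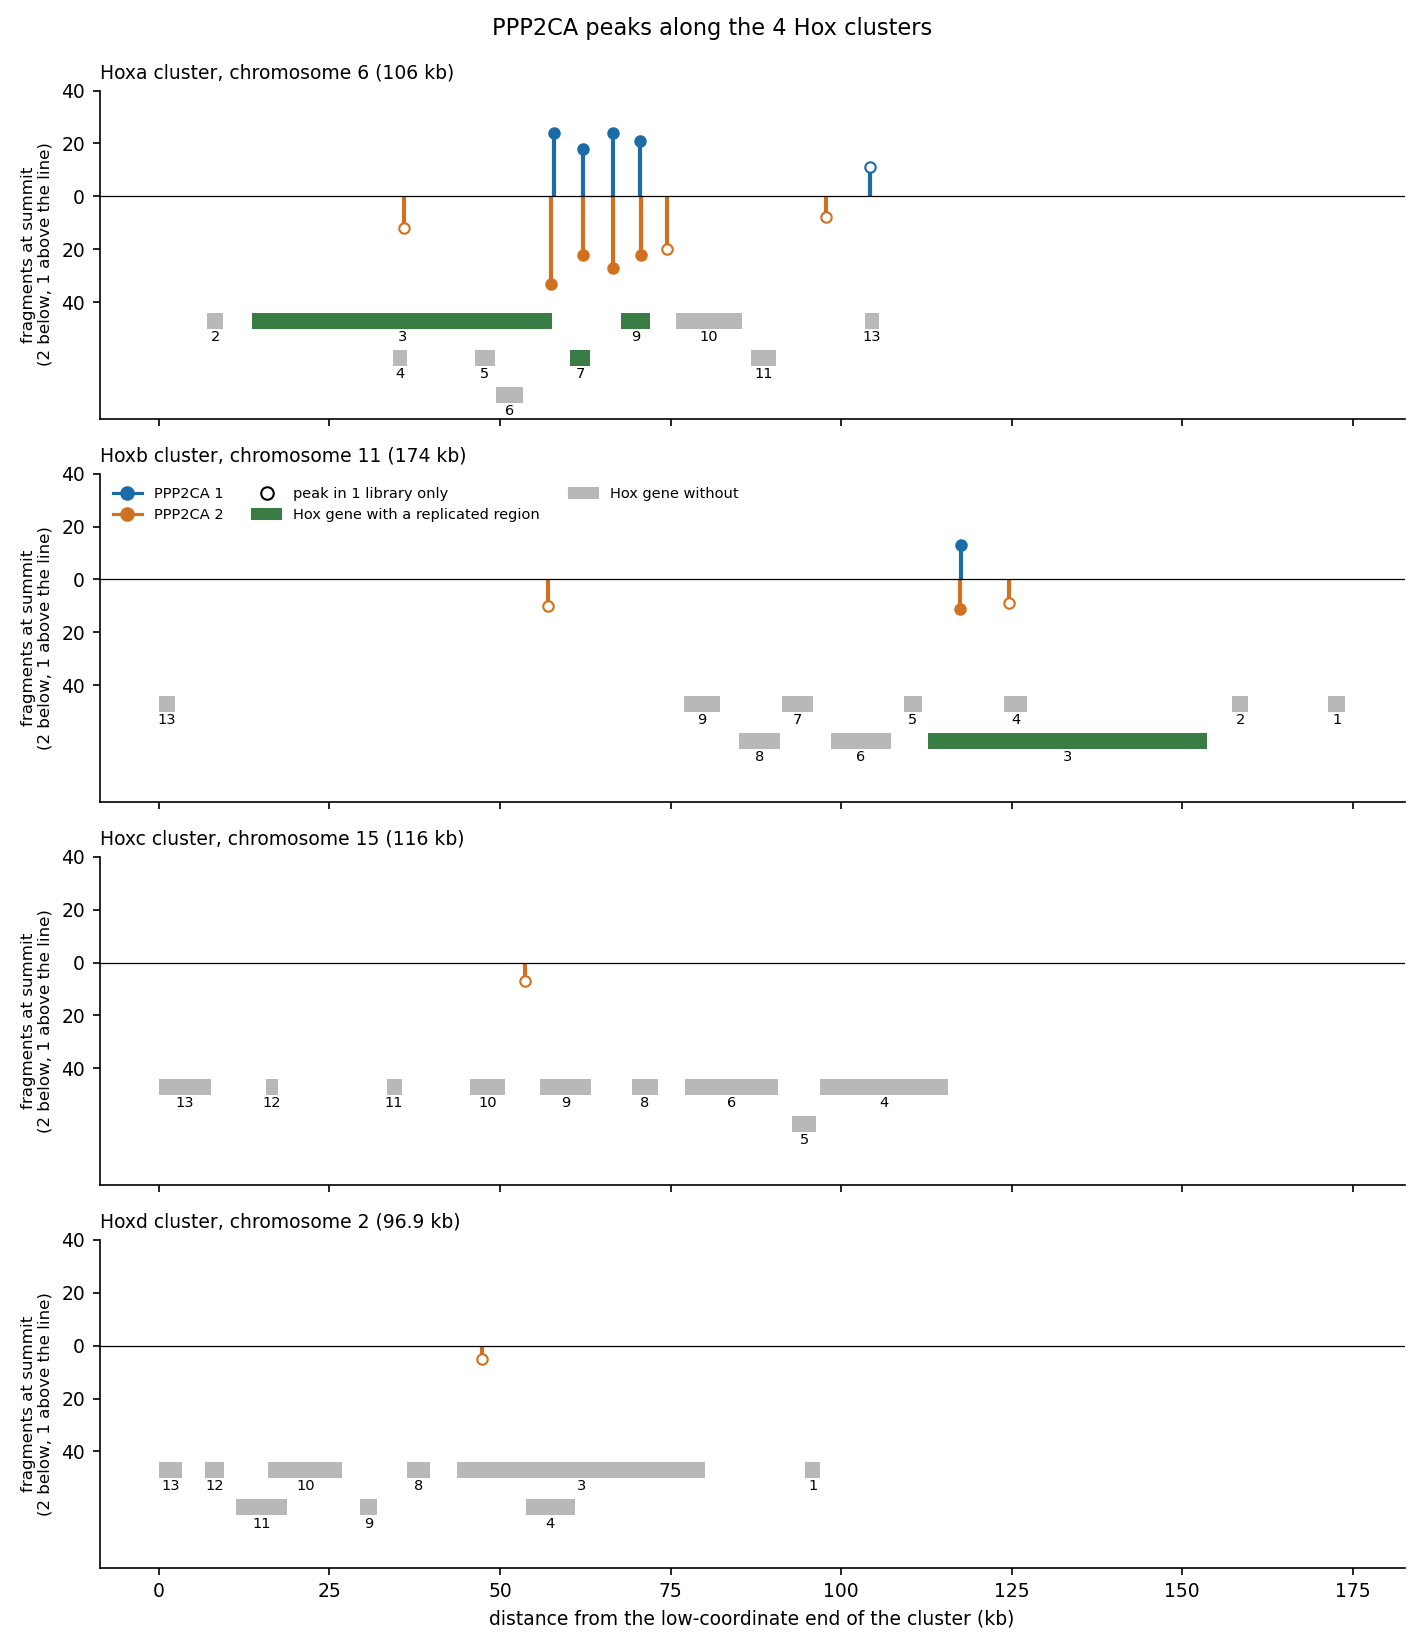
PPP2CA peaks along each Hox cluster, with distance from its low-coordinate end in kb on the horizontal axis and fragments at the summit on the vertical axis, PPP2CA 1 above and PPP2CA 2 below the line. Filled points are peaks found in both libraries and open points peaks of 1 library. Boxes are Hox genes, numbered by paralogue and green where a replicated region lies in the gene or within 1 kb, and 4 replicated regions stand close together between Hoxa3 and Hoxa9.

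Within Hoxa, 4 of the 5 replicated regions lay in a stretch of 13.5 kb on chromosome 6, from 52212774 to 52226259. The first, at 52212774 to 52213457 (684 bp), crossed the start of Hoxa3, known for its role in thymus and parathyroid development. Its summit held 24 fragments in PPP2CA 1 (95% Poisson interval 15.4 to 35.7) and 33 in PPP2CA 2 (22.7 to 46.3), the highest of the Hox regions in PPP2CA 2 and level with the highest in PPP2CA 1. Its fold over local background, the authors' value, was 4.29 and 4.67, with a −log10 q of 7.26 and 11. The 2 summits were 438 bp apart, the PPP2CA 1 summit upstream of the start and the PPP2CA 2 summit inside the gene. The region also lies inside the lncRNA gene Hoxaas3 (52201124 to 52213597), which overlaps Hoxa3 and extends past its start, and the lists carry no strand, so the region cannot be given to either gene. Hoxa6 and Hoxa7 are 4102 and 2166 bp from it.

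Hoxa7, which is often active together with Hoxa9 in leukaemia, held the next region at 52217171 to 52217585 (415 bp), 988 bp inside its start and so just within the 1 kb limit. The summit held 18 (10.7 to 28.4) and 22 (13.8 to 33.3) fragments, with a fold of 2.52 and 2.61. Only 0.339% and 0.481% of all peaks of the same library had a lower fold. The PPP2CA 2 peak alone did not come within 1 kb of the Hoxa7 boundary. Hoxa7 therefore counted as marked through the edge of the PPP2CA 1 peak.

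Hoxa9, which encodes a regulator of stem cell self-renewal, had a region on each side of its low-coordinate boundary, the 3′ end of this minus-strand gene. The outer one, at 52221476 to 52222181 (706 bp), lay 916 bp beyond that end, between Hoxa9 and Hoxa7. It held 24 (15.4 to 35.7) and 27 (17.8 to 39.3) fragments, with a fold of 3.15 and 3.41 and summits 32 bp apart. The inner one, at 52225370 to 52226259 (890 bp), lay in the gene, 1111 bp from its start. It held 21 (13 to 32.1) and 22 (13.8 to 33.3) fragments, with a fold of 3.07 and 2.9. The annotated start of Hoxa9 carried no peak in either library. Whether shorter transcripts of Hoxa7 or Hoxa9 start further inside the gene was not examined.

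In Hoxb a single region was found in both libraries, on chromosome 11 at 96311636 to 96312058 (423 bp). It lay inside Hoxb3, a gene expressed in early blood progenitors, 4535 bp from the nearer boundary. The summit held 13 (6.92 to 22.2) fragments in PPP2CA 1 and 11 (5.49 to 19.7) in PPP2CA 2, with a fold of 5.13 and 3.91. In PPP2CA 2 its interval lay below that of the region at Hoxa3, and in PPP2CA 1 the intervals of these regions overlapped.

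A further 8 peaks in the clusters were called in 1 library only, 7 of them in PPP2CA 2, with summits of 5 to 20 fragments. Hoxb4, whose overexpression expands stem cells, had a PPP2CA 2 peak of 9 fragments (4.12 to 17.1) on chromosome 11 at 96318549 to 96318961, 282 bp inside its start. Hoxa4 had one of 12 fragments (6.2 to 21) on chromosome 6 at 52190996 to 52191457. Hoxa13, a gene of limb and urogenital development, had the only peak found in PPP2CA 1 alone, of 11 fragments (5.49 to 19.7) at 52259575 to 52260092. These 3 lay within 1 kb of a boundary.

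The Hoxd cluster held just 1 peak, on chromosome 2 at 74715338 to 74715812 inside Hoxd3, with 5 fragments in PPP2CA 2, the lowest summit that library's list holds. The Hoxc cluster also held just 1, of 7 fragments in PPP2CA 2, on chromosome 15 at 102974705 to 102975020 between Hoxc10 and Hoxc9. The other 3 peaks lay between members too. Between Hoxa9 and Hoxa10 the peak held 20 fragments (52229602 to 52230061), between Hoxa11 and Hoxa13 8 fragments (52252882 to 52253719), and between Hoxb13 and Hoxb9 10 fragments (96251341 to 96251744), all in PPP2CA 2.

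**Figure D3:**
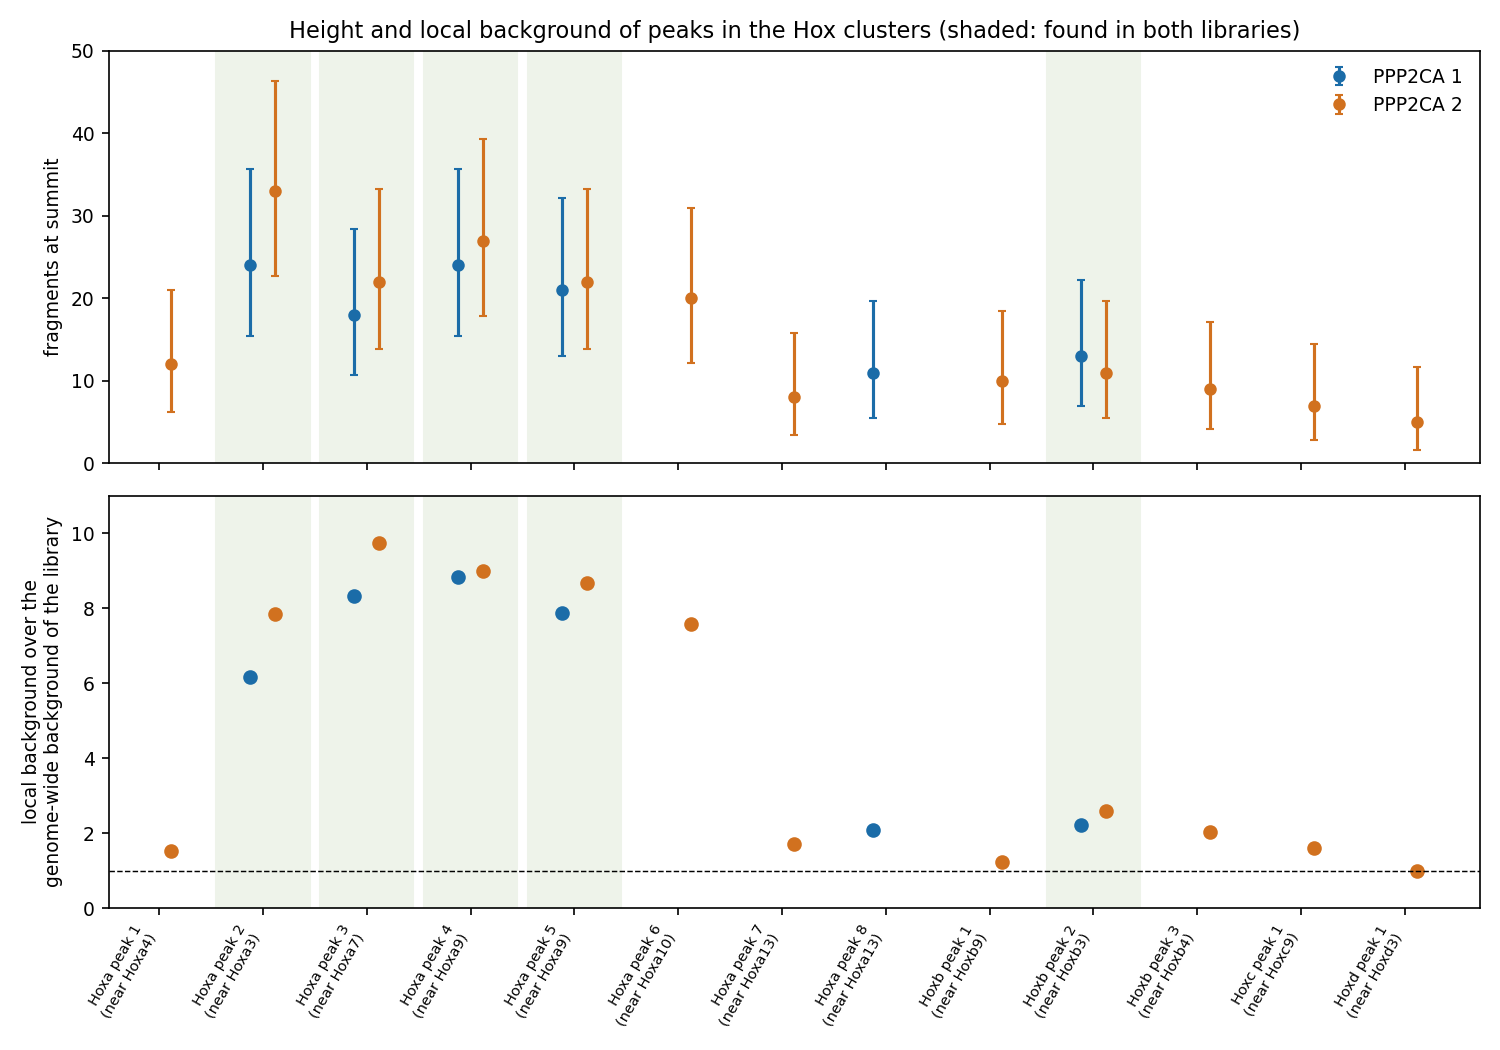
Fragments at the summit (upper panel, with 95% Poisson intervals as bars) and local background as a multiple of the library's genome-wide background (lower panel, dashed line at 1) for 13 places with a PPP2CA peak in a Hox cluster, in chromosome order, shaded where both libraries had it. Local background stands at 6.16 to 9.74 in the 4 regions from Hoxa3 to Hoxa9 at 7.58 between Hoxa9 and Hoxa10 and at 1 to 2.58 at the other places shown, Hoxa4 included.

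The 4 replicated regions from the Hoxa3 start to Hoxa9 stood on a high local background. The local background of a peak is the number of fragments expected at its summit from the signal around it, as recovered from the authors' fold and p. It is read here as signal of the same library, but whether IgG served as a control is not known. For the regions at Hoxa3, in Hoxa7, below Hoxa9 and in Hoxa9 it was 4.83, 6.53, 6.93 and 6.17 fragments in PPP2CA 1, or 6.16, 8.33, 8.83 and 7.86 times the genome-wide background. In PPP2CA 2 it was 6.28, 7.8, 7.2 and 6.93 fragments, or 7.84, 9.74, 9 and 8.66 times. The PPP2CA 2 peak between Hoxa9 and Hoxa10 also had a high value, at 7.58 times. The PPP2CA 2 peak at Hoxa4, inside the annotated length of Hoxa3, did not, with 1.22 fragments or 1.52 times. The median over all peaks was 2.31 fragments in PPP2CA 1 and 2.45 in PPP2CA 2.

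Taller peaks tend to have a higher local background, so each region was set beside the peaks of its library within 2 fragments of its height. The local background in Hoxa7 was 2.91 and 2.8 times the median of those peaks, higher than that of 99.8% and 99.1% of them. Below Hoxa9 it was 2.44 and 2.22 times the median, and in Hoxa9 2.46 and 2.49 times. The region at the Hoxa3 start was less set apart, at 1.7 and 1.62 times, above 87% and 88.6% of like peaks. In Hoxb3 the ratio was 1.04 and 1.44. The 4 Hoxa regions are close neighbours, so they share part of this background and are not 4 separate measurements.

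**Figure D4:**
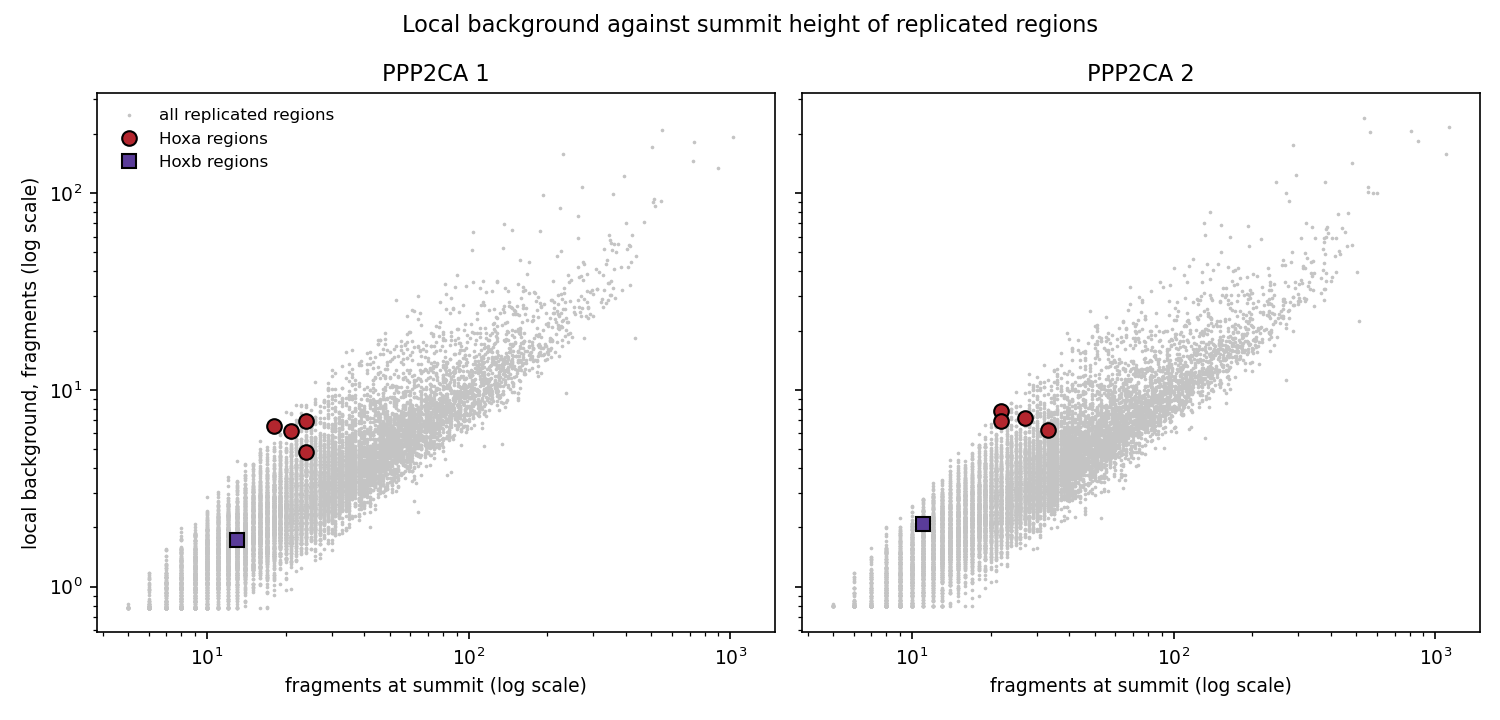
Local background (fragments, log axis) against fragments at the summit (log axis) for all replicated regions (grey points) in PPP2CA 1 (left) and PPP2CA 2 (right), with 4 Hoxa regions as red circles and the Hoxb region as a purple square. The regions in and beside Hoxa7 and Hoxa9 lie along the upper edge of the points at their height.

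The libraries were compared at shared summits, those within 100 bp of each other. Of 6930 such summits in the genome, 4 (0.0577%) differed in fragments by an exact two-sided binomial test with Benjamini-Hochberg adjustment over all of them. The Hox clusters held 3 shared summits and none was called, nor did any reach an unadjusted p under 0.05. Among the counts were 18 and 22 in Hoxa7 (exact p = 0.754, adjusted 1) and 24 and 27 below Hoxa9 (exact p = 1, adjusted 1). At such counts a moderate difference would not have been detectable. The other 3 regions had summits more than 100 bp apart and were not tested.

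Of the 7 PPP2CA 1 peaks in the clusters, 6 were found again in PPP2CA 2 (85.7%, exact 95% interval 42.1 to 99.6), and 79.4% of all PPP2CA 1 peaks of 11 to 24 fragments did so. Of the 13 PPP2CA 2 peaks in the clusters, 6 were found again in PPP2CA 1 (46.2%, 19.2 to 74.9), with 61.3% for all PPP2CA 2 peaks of 5 to 33 fragments. Both intervals include the share of peaks of like height. At the heights of the 7 peaks that were not found again, 5 to 20 fragments, 50.6% of all PPP2CA 2 peaks recurred.

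Neither IgG library had a peak anywhere in the 4 clusters. The count of Hox genes with an IgG peak was 0 of 39 within 1 kb of a boundary, where 0.606% and 0.22% of all genes had one in IgG 1 and IgG 2, and 0 of 39 in the gene or within 1 kb, where 1.46% and 0.721% had one. The nearest IgG peak was 0.203 Mb from Hoxc and 0.685 Mb from Hoxa. A signal equal with both antibodies would put 1.15 to 3.46 fragments at the summits of the replicated Hox regions in an IgG library, and 0.52 to 2.1 at the peaks of 1 library, while the lowest summit in either IgG list held 3. Only the Hoxa3 region in PPP2CA 2 (3.44 to 3.46) lay above that lowest summit, and by less than 1 fragment. A difference from IgG was not tested.

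By paralogue number, counts were small in every group. Paralogues 1 to 4 had a replicated region within 1 kb of a boundary at 1 of 12 genes (8.33%, exact 95% interval 0.211 to 38.5), paralogues 5 to 9 at 2 of 15 (13.3%, 1.66 to 40.5) and paralogues 10 to 13 at 0 of 12 (0 to 26.5). The 3 intervals overlap, and no order can be read from them. The share of all protein-coding genes was 39.5%. At paralogue 3, singled out after its values were seen, all 3 members had a PPP2CA 2 peak in or within 1 kb (52.4% of all genes). Hoxa3 had it at its start, Hoxb3 inside, both also in PPP2CA 1, and Hoxd3 inside with 5 fragments. These 3 are the longest genes of the clusters (36.3 to 44 kb), and the part of length was not tested. At paralogue 4, Hoxa4 and Hoxb4 had a peak in PPP2CA 2 only, while Hoxc4 and Hoxd4 had none. At paralogue 9, Hoxa9 was the only 1 of 4 with a peak, and at paralogue 7 Hoxa7 was the only 1 of 2. Paralogue numbers 5, 6, 8, 10, 11 and 12 were among those with no peak in or within 1 kb of any gene in either PPP2CA library.

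Promoters could be counted for only some of the Hox genes. Most Hoxb and Hoxc genes had no promoter entry, so the values for Hox promoters describe mainly Hoxa and Hoxd. The RefSeq promoter table held 24 promoters of 22 Hox genes, and only that of Hoxa3 had a replicated region (1 of 22 genes, 4.55%, exact 95% interval 0.115 to 22.8), against 40.1% of 17492 protein-coding genes with a promoter in the table. Each PPP2CA library had a peak at that same promoter alone. In base composition the medians of Hox promoters and of all promoters lay close together. The median GC share of Hox promoters was 57.7% (range 39.7 to 81) beside 56.3% over all, and the median observed over expected CpG ratio was 0.626 beside 0.567. Over all promoters that ratio was 0.819 with a replicated region and 0.3 without. The highest Hox value, 1.02 at Hoxa5, was at a promoter with no peak.

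Short motifs were searched on both strands of the same windows. The letters TGATTNAT, the joint site of HOX and PBX proteins, were in 2 of 24 Hox promoters (Hoxa2 and one of Hoxd11), or 8.33%, and in 2.75% of all promoters. The MEIS core TGACAG was in 2 (Hoxa2 and Hoxa3), or 8.33%, and in 18.7% of all. The TATA box TATAAA was in 4, or 16.7%, and in 12.6% of all. The CCAAT box, searched as CCAAT, was in 15, or 62.5%, and in 38.2% of all. A match is a run of letters and not a measured binding site, and with 1 marked promoter no motif could be compared with the mark.

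The spaces between Hox genes numbered 29, from 278 to 74719 bp long. A replicated region touched 2 of them, Hoxa3 to Hoxa7 and Hoxa7 to Hoxa9. Both are regions already counted above, at the Hoxa3 start and below Hoxa9. PPP2CA 1 peaks touched 2 spaces, PPP2CA 2 peaks 6 and IgG peaks none. Spaces between other genes were not counted, so no background share stands beside these counts. The gene table also places 25 lncRNA genes in the clusters, and 3 of them, Hoxaas3 among these, had a replicated region within 1 kb of a boundary. That is a share near the 12.6% of all lncRNA genes. Hotair in Hoxc and Haglr in Hoxd had none.

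Of the 6 miRNA genes in the clusters, none was marked, where 8.88% of all miRNA genes were. They are shown because they recur between clusters as the Hox genes do, and they repress Hox mRNAs among others. The 5p arms below are from RefSeq, with the seed (bases 2 to 8) in capitals.
miR-196b-5p: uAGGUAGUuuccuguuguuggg
miR-196a-5p: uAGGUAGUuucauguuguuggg
miR-10a-5p: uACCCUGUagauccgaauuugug
miR-10b-5p: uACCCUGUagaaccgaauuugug

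The miR-196 genes share the seed AGGUAGU and lie in Hoxa (Mir196b), Hoxb (Mir196a-1) and Hoxc (Mir196a-2). The miR-10 genes share the seed ACCCUGU and lie in Hoxb (Mir10a) and Hoxd (Mir10b). The sixth gene, Mir615, lies in Hoxc. Mir196b alone had a peak within 1 kb, the PPP2CA 2 peak between Hoxa9 and Hoxa10, which ended 68 bp from the 5p arm, while the nearest PPP2CA 1 peak was 3870 bp away. For miR-10a-5p the nearest peak was 5128 bp away in PPP2CA 1 and 1341 bp in PPP2CA 2. For miR-10b-5p these distances were 146809 and 10262 bp.

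Of the nearest protein-coding genes outside the clusters, Skap2, an adaptor of immune cell signalling 143 kb below Hoxa, had a replicated region of 32 and 36 fragments. Calcoco1, a coactivator gene 198953 bp below Hoxc, had one of 12 and 14 fragments. Evx1, Evx2, Ttll6, Skap1, Smug1 and Mtx2 had none within 1 kb of a boundary. The summits at Skap2 held as many fragments as the tallest Hoxa region within counting error, while its local background, 3.08 and 3.01 fragments, was lower than that of the 4 regions from Hoxa3 to Hoxa9.

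The genes that act with or on Hox genes are given by counts with exact 95% intervals and no test, beside the 39.5% of all genes. Of the TALE cofactors, which bind DNA together with HOX proteins, 5 of 9 were marked (55.6%, 21.2 to 86.3). Pknox1 led with 128 and 138 fragments, then Pbx4 with 52 and 53, and Meis1 and Pbx3 were also marked. Of the regulators that keep Hox genes on, 9 of 11 were marked (81.8%, 48.2 to 97.7). Among them were the histone methyltransferase genes Ash1l (77 and 89 fragments) and Kmt2a (66 and 62) and the menin gene Men1 (61 and 84), and Mllt10 and Dot1l had a region further inside only. Of the Polycomb genes 15 of 16 were marked (93.8%, 69.8 to 99.8), among them Eed (74 and 94), Suz12 (45 and 62) and Jarid2 (80 and 74), with Cbx7 marked further inside only.

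Few of the other developmental homeobox genes were marked. The ParaHox and Evx genes, the closest relatives of the Hox clusters, had 0 of 8 (0 to 36.9%), though Cdx1 had a region further inside. Of 43 developmental homeobox genes of families such as Dlx, Lhx and Nkx2, 1 was marked (2.33%, 0.0589 to 12.3), which was Six5 with 52 and 49 fragments. Expression, accessibility and histone marks in these cells were not measured in these data, and their part in the low counts was not tested.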

How the data were processed

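CUT&Tag was made from hematopoietic stem cells with antibodies to PPP2CA and with IgG, 2 libraries each, and groups and replicate numbers came from the sample titles. For each library the authors deposited a list of peaks in narrowPeak format. The tools named, per the submitters' processing notes, were BWA, Trimmomatic, MACS2, HOMER, deepTools and ChIPseeker, with GRCm38 and mm10 as builds. Their settings, and whether IgG served as a control, are not given in the sources used here. The deposited fold is a ratio, that of the summit over a background near it, taken here as that of the same library. The deposited −log10 p and −log10 q refer to the summit. The deposited score was nearly always 10 times the −log10 q. Summit positions were taken as the authors gave them.

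Summit fragments and local background were computed from the deposited fold, as (fragments + 1) / (background + 1), and the Poisson p. All summits came out whole (relative error at most 2e-05). The lowest background in a list was read as genome-wide. Total reads were not used. Intervals cover counting error only, since PCR copies are not independent molecules.

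Genes, promoters and miRNAs came from RefSeq tables of GRCm38.p6. The gene table has no strand, so both gene boundaries were used, and entries below 3 Mb were left out. Groups of 2 allow no informative permutation test, so counts are given beside all genes, and only the PPP2CA libraries were tested against each other. Named were every Hox gene or space with a region, every peak of 1 library, the nearest gene outside each cluster end and the 3 best of each related list by −log10 q. Of the items this rule names, 2 are not reported here, and the figures leave them out. The members and lists were chosen with earlier results of these data known. The recovery and the test were checked on simulated data. With fold and p made by the assumed formulas, 100% of 16639 PPP2CA 1 summits came back, which does not check the formulas themselves. Of the summits changed 3-fold among 6930 shared by the PPP2CA libraries, drawn from all heights, 86% were called. Alternatives were window size, −log10 q, summit height, overlap, IgG filter, gene body and each library left out, and the promoter window was added after seeing the data. Python 3.11.15, numpy 2.4.6, pandas 2.3.3, scipy 1.17.1 and matplotlib 3.10.9 were used.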

Additional observations from a re-analysis of the deposited data

How the results depend on the processing

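The low count of marked Hox genes held under every alternative run: it was 1 to 5 of 39, with 26.5% to 45.3% of all protein-coding genes marked. It was 1 (Hoxa3) when peaks under a −log10 q of 5 were left out and with a window of 500 bp, for Hox and for Hoxa genes alike, and 5 with regions anywhere in the gene, which gave 1 for Hoxb. Leaving out 1 library at a time gave 3 to 4 Hox genes, 3 to 4 Hoxa genes and 0 to 1 Hoxb genes, the Hoxb4 peak counting without PPP2CA 1. Hoxa7 was not marked without PPP2CA 1. Hoxc and Hoxd stayed at 0 in all of them. The regions inside the clusters numbered 1 with −log10 q of 5 or more, 3 with at least 20 fragments and 6 to 13 when a library was left out. At shared summits the count of differences in the Hox clusters was 0 in all settings, but only 2 summits were tested within 50 bp and none with −log10 q of 5 or more. Most Hox summits held under 30 fragments, and at IgG depth an equal signal could go uncalled. No paired analysis was possible because the counts come from no test, and each library's peaks were called separately.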
